A study of Mus musculus with 16 samples.

Results

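Bone morphogenetic protein (BMP) ligands and the proteins that hold them back were followed through the Polycomb peak lists of mouse cells. The 10 genes were chosen by name. They comprised 5 ligands (Bmp2, Bmp4, Bmp6, Bmp7 and Gdf6), 4 secreted antagonists (Nog, Chrd, Fst and Grem1) and the pseudoreceptor Bambi, and all 10 were among the 22232 protein-coding gene names of the annotation. The cells were 46C mouse embryonic stem cells (ES), a line with a Sox1-GFP reporter, grown on inactivated fibroblasts with leukemia inhibitory factor and 2i inhibitors, and in-vitro differentiated neural cells (NPC) made from them by 6 days of suspension culture. H2AK119ub1 and H3K27me3 were each profiled by ChIP-seq in wild type and in shPCGF5 cells of both stages, which gave 8 histone lists. The shPCGF5 cells, called PCGF5-deficient below, were stable lines picked after lentiviral delivery of a hairpin against Pcgf5. A further 2 lists were for PCGF5 pulled down through a Flag tag knocked into its gene, in ES and NPC whose label is wild type. Each group had 1 library, so no difference below could be set against replicate error, and no test was made. PCGF5 abundance was not measured by these lists, and any reads from feeder cells in the ES libraries cannot be told apart.

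BMPs are secreted dimers of the transforming growth factor β superfamily that bind serine/threonine kinase receptors and activate SMAD1, SMAD5 and SMAD9. Noggin, chordin, follistatin and gremlin bind ligands outside the cell, and BAMBI is a membrane protein without a kinase domain. In the early embryo BMP signalling holds back neural fate, and antagonists from the organizer relieve that block. H2AK119ub1 is laid down by Polycomb repressive complex 1 and H3K27me3 by Polycomb repressive complex 2, and both are found at silent developmental genes, commonly at CpG-rich start regions.

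For each gene, a promoter peak was one with its midpoint no more than 2500 bp away from any annotated start of a protein-coding transcript, and the covered bp were the summed full widths of these peaks. Enrichment is the fold over local background that the peak caller gave a peak within its own library. The lists held 3845 to 8672 peaks for H2AK119ub1, 10234 to 14759 for H3K27me3, and 653 (ES) and 12013 (NPC) for Flag-PCGF5, and the sequencing depth behind them is unknown. Of the marker genes, Pou5f1 and Nanog had no promoter peak in any list, Zfp42 had 253 bp of H3K27me3 in wild type NPC alone, and Pax6 was covered in all 8 histone lists. These lists measure marks and not transcripts, so the markers do not establish the identity of the cells.

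Most of the genes carried H3K27me3, and fewer carried H2AK119ub1. In wild type cells, 8 of the 10 genes had an H3K27me3 promoter peak in ES (13.4% of all genes) and 8 in NPC (15.7%). In PCGF5-deficient cells, 6 had it in ES (12.9%) and 9 in NPC (15.4%). H2AK119ub1 was listed at 6 genes in wild type ES (6.69% of all genes) and 4 in wild type NPC (4.98%). Its counts in PCGF5-deficient cells were 6 in ES (5.96%) and 3 in NPC (4.17%). These shares were several times the share of all genes in each histone list. The genes were chosen with earlier results of these data known, and the part of that choice in the excess was not tested. Flag-PCGF5 lay at none of the 10 in ES (0.787% of all genes) and at Bmp6, Nog and Fst in NPC (13.7%).

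**Figure D1:**
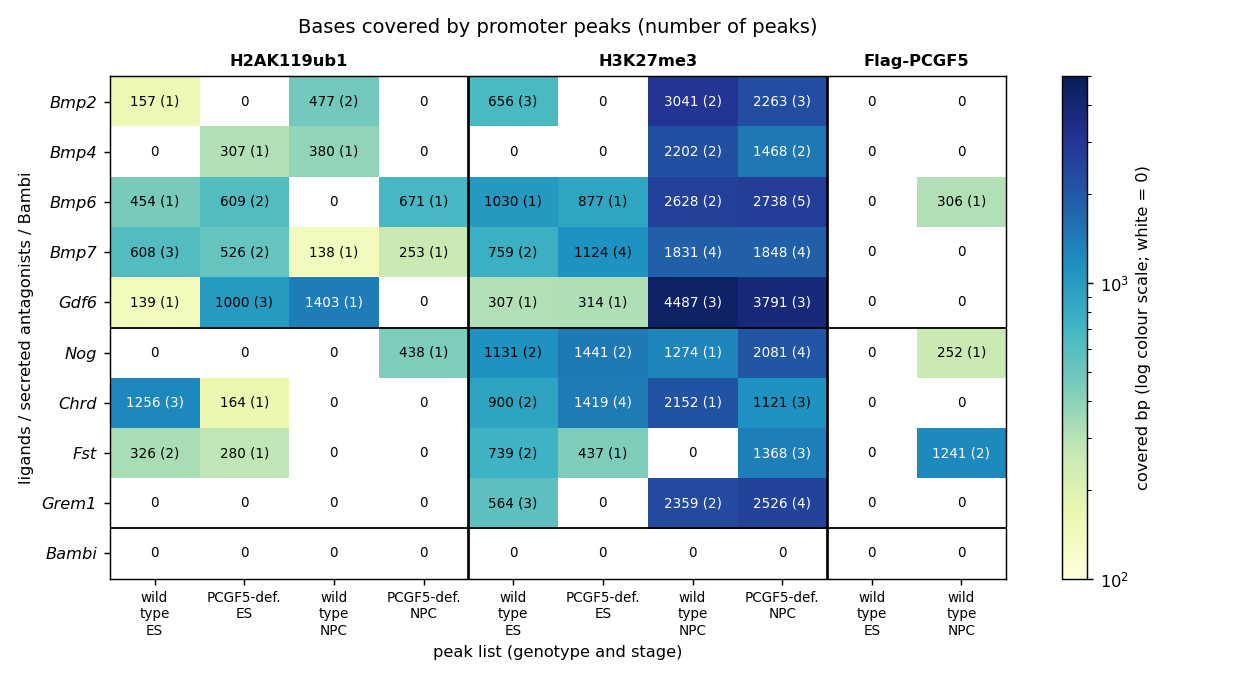
Bases covered by promoter peaks for the 10 genes (rows) in the 10 peak lists (columns), with the number of peaks in parentheses; colour is on a log scale and white cells hold no peak. The 2 NPC columns of H3K27me3 are the darkest, with 4487 bp at Gdf6 in wild type NPC, and the Bambi row is empty.

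Among the H2AK119ub1 lists, the ligands and antagonists of these 10 genes differed most in that of wild type NPC. In ES of either genotype, 4 of the 5 ligands and 2 of the 4 secreted antagonists had an H2AK119ub1 promoter peak (6.69% and 5.96% of all genes). In wild type NPC these counts were 4 and 0 (4.98% of all genes), and in PCGF5-deficient NPC they were 2 and 1 (4.17%). With midpoints within 1000 bp, 2 of the 10 genes were marked in wild type NPC. Chrd and Fst were the antagonists marked in ES, and Nog was the antagonist marked in PCGF5-deficient NPC. With 5 genes against 4 and 1 library per group, the difference in wild type NPC was not tested. It was not seen among 11 other ligands and 12 other antagonists chosen by name. Their H2AK119ub1 counts were 1 and 1 in wild type NPC, and 3 and 3 in PCGF5-deficient NPC (4.98% and 4.17% of all genes).

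Single peaks of H2AK119ub1 or Flag-PCGF5 at 7 of the genes are shown here because the descriptions below return to them, and other stretches of the same promoters can lie in more lists. Each run is a promoter peak of the list named, or its shared part with up to 20 bases on either side where the peak was longer than 300 bases. It is read from the mm9 assembly on the strand of the gene, 5′ to 3′, and capitals mark the bases of that run covered by the largest number of lists. None of the runs overlaps an annotated untranslated region.
Bmp2 intron, wild type NPC H2AK119ub1 peak, plus strand, chr2:133379090-133379223, capitals in 4 lists: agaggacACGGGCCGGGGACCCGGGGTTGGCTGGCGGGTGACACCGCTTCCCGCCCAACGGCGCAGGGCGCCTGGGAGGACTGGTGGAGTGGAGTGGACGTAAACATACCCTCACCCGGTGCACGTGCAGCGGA
Bmp4 intron, part of the wild type NPC H2AK119ub1 peak, minus strand, chr14:47009566-47009759, capitals in 3 lists: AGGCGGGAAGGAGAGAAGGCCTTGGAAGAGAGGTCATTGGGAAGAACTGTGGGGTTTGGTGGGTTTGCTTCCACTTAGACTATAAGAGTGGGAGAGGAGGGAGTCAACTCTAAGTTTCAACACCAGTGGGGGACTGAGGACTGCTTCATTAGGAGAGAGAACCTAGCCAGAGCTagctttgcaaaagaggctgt
Bmp6 intron, part of the NPC Flag-PCGF5 peak, plus strand, chr13:38438905-38439126, capitals in 3 lists: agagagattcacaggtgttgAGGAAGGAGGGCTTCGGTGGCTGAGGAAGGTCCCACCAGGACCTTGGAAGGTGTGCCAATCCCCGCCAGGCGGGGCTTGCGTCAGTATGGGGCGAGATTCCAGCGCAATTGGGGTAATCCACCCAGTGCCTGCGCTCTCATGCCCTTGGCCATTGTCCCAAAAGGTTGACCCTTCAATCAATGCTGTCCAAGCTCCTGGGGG
Gdf6 intron, wild type ES H2AK119ub1 peak, plus strand, chr4:9772420-9772558, capitals in 6 lists: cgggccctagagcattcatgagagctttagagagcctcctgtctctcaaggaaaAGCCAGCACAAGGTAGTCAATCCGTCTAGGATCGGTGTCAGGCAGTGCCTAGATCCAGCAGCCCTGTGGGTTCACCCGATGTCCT
Nog, downstream of the gene, NPC Flag-PCGF5 peak, minus strand, chr11:89161263-89161514, capitals in 4 lists: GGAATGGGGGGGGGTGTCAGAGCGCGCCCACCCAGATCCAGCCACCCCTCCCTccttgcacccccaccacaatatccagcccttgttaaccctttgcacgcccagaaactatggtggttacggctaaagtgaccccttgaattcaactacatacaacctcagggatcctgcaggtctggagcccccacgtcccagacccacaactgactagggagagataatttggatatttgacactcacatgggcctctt
Chrd intron, PCGF5-deficient ES H2AK119ub1 peak, plus strand, chr16:20733719-20733882, capitals in 5 lists: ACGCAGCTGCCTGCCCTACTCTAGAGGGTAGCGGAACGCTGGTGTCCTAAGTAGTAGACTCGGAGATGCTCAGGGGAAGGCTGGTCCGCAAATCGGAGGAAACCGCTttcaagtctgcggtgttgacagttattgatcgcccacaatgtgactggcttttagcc
Fst intron, wild type ES H2AK119ub1 peak, minus strand, chr13:115247433-115247618, capitals in 5 lists: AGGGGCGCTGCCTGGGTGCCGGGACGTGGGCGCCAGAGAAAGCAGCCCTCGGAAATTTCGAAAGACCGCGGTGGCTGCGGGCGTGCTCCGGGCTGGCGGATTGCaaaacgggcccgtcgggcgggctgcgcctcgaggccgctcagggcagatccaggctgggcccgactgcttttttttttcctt
The runs differed in CpG content. The Fst intron held 20 CpG in 186 bases (observed to expected ratio 0.957) and the Bmp2 intron 13 in 134 bases (0.812), whereas the Bmp4 intron held 1 in 194 bases (0.0956).

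Bmp2, a ligand with roles in heart and bone formation, lies at chr2:133377895-133388621 on the plus strand. For H2AK119ub1, wild type promoter coverage was 157 bp at the ES stage and 477 bp at the NPC stage, and PCGF5-deficient coverage was 0 at both. For H3K27me3, the wild type values were 656 bp (ES) and 3041 bp (NPC), and the PCGF5-deficient values 0 and 2263 bp. In ES, then, wild type cells had both marks at Bmp2 and PCGF5-deficient cells neither, while PCGF5-deficient NPC had H3K27me3 peaks without H2AK119ub1. The H2AK119ub1 of wild type ES was 1 peak, 2244 bp from the start. Its difference between genotypes, -157 bp, was 0 with midpoints within 1000 bp, with the higher-scoring 50% and with equal numbers of peaks. The wild type NPC H3K27me3 peak over the start ran for 2625 bp with an enrichment of 7.67. In PCGF5-deficient NPC the same ground held 3 peaks of 796, 658 and 809 bp with enrichments of 2.89 to 4.01. The intronic stretch printed above was covered in both wild type NPC histone lists, in wild type ES H3K27me3 and in PCGF5-deficient NPC H3K27me3.

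Bmp4, a ligand widely used to induce mesoderm and to block neural fate in culture, lies at chr14:47003195-47010344 on the minus strand and has 2 annotated starts. H2AK119ub1 covered 307 bp of its promoter in PCGF5-deficient ES and none in wild type ES, but 380 bp in wild type NPC and none in PCGF5-deficient NPC. H3K27me3 covered none in either ES list, and in NPC 2202 bp (wild type) and 1468 bp (PCGF5-deficient). Bmp4 was thus the gene without H3K27me3 in ES of either genotype that had it in NPC of both. This pattern was shared by 8.95% of all genes with an H3K27me3 promoter peak. It was lost in PCGF5-deficient cells with the higher-scoring 50% and with equal numbers of peaks, where the NPC coverage was 0 in place of 1468 bp. Across the gene body, wild type NPC held 5 H3K27me3 peaks over 57.3% of its length and PCGF5-deficient NPC 2 peaks over 20.5%. The highest H3K27me3 enrichment was 7.18 in wild type and 3.63 in PCGF5-deficient NPC. The 2 H2AK119ub1 peaks of Bmp4 sat at different places in an intron, 1540 and 656 bp downstream of the nearest start.

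Bmp6, a ligand known for its control of hepcidin and iron balance, lies at chr13:38436995-38592183 on the plus strand. Coverage by H2AK119ub1 in ES was 454 bp (wild type) and 609 bp (PCGF5-deficient), and in NPC it was 0 and 671 bp. Coverage by H3K27me3 was 1030 and 877 bp in ES and 2628 and 2738 bp in NPC, again with the wild type first. Bmp6 had the highest promoter enrichments of the 10 genes for both marks, with a maximum of 7.59 for H2AK119ub1 (PCGF5-deficient NPC) and 11.0 for H3K27me3 (wild type NPC). The H2AK119ub1 list of wild type NPC was the histone list without a Bmp6 promoter peak. The NPC Flag-PCGF5 list had one, of 306 bp with an enrichment of 2.09, in an intron 1388 bp past the nearest start. The Flag-PCGF5 peak was overlapped by the H3K27me3 peaks of both NPC lists and by no H2AK119ub1 peak.

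Bmp7, a ligand needed for kidney and eye development, lies at chr2:172693513-172765822 on the minus strand, and it was the 1 gene of the 10 with a promoter peak in all 8 histone lists. Of all 22232 genes, 316 had a promoter peak in all 8. By mark, 12.7% of all genes with an H2AK119ub1 promoter peak in any list had it in all 4. Of those with H3K27me3, 31.2% did. In ES, H2AK119ub1 covered 608 bp (wild type) and 526 bp (PCGF5-deficient), against 138 and 253 bp in NPC. H3K27me3 covered 759 and 1124 bp in ES, against 1831 and 1848 bp in NPC. Over whole peaks, H2AK119ub1 was thus narrower and H3K27me3 wider in NPC than in ES of either genotype, but these directions depended on the counting. For PCGF5-deficient cells the H2AK119ub1 difference (NPC minus ES) was 253 bp in place of -273 bp with midpoints within 1000 bp, with bases inside 1000 bp and with equal numbers of peaks. The H3K27me3 difference was -53 bp in wild type cells with midpoints within 1000 bp, and -2219 bp in PCGF5-deficient cells with neighbouring peaks merged. In wild type NPC the H2AK119ub1 peak lay 874 bp upstream of the start, within an H3K27me3 peak at -860 bp. In PCGF5-deficient NPC no promoter peak lay upstream, and H2AK119ub1 lay in the coding exon at 330 bp.

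Gdf6, a ligand of the GDF5 group involved in joint and eye formation, lies at chr4:9771519-9789492 on the plus strand and had the most covered bp of the 10 genes summed over the 8 histone lists, 11441 bp. The H2AK119ub1 values were 139 bp (ES) and 1403 bp (NPC) for wild type cells, and 1000 bp and 0 for PCGF5-deficient cells. The H3K27me3 values were 307 and 4487 bp for wild type cells, and 314 and 3791 bp for PCGF5-deficient cells. The H3K27me3 coverage was nearly equal between genotypes in ES and larger in NPC in both, while H2AK119ub1 was listed in every group except PCGF5-deficient NPC. The 85 bases in capitals in the Gdf6 run were inside peaks of 6 lists, namely 3 of the 4 H2AK119ub1 lists and 3 of the 4 H3K27me3 lists. In wild type ES the H3K27me3 peak lay elsewhere, 280 bp upstream of the start. Gdf6 also had marks near its 3′ end, where 1 to 4 peaks lay 14242 to 16695 bp from the start in 7 of the 8 histone lists.

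Nog encodes noggin, which binds BMP dimers and keeps them from their receptors, and lies at chr11:89161952-89163873 on the minus strand. H2AK119ub1 was listed in PCGF5-deficient NPC, over 438 bp, and covered 0 bp in the other lists. H3K27me3 covered 1131 bp (ES) and 1274 bp (NPC) in wild type cells, and 1441 and 2081 bp in PCGF5-deficient cells. Nog thus had H3K27me3 in all 4 lists of that mark, with a ratio of 1.13 between wild type NPC and ES. That difference of 143 bp was 569 bp when any base of a peak in the window counted, since a further wild type NPC peak reaches into the window with its midpoint outside. Its enrichment there was 5.09 in wild type ES and 8.45 in wild type NPC. Since the gene is 1922 bp long, these peaks covered between 49.5% and 66.3% of it. The NPC Flag-PCGF5 peak of 252 bp lay past the 3′ end at 2484 bp from the start, just inside the promoter window, with an enrichment of 2.09. The peak was overlapped by H3K27me3 peaks in both NPC lists and in PCGF5-deficient ES.

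Chrd encodes chordin, another extracellular BMP trap of the organizer, and lies at chr16:20733200-20742457 on the plus strand. Its H2AK119ub1 coverage in ES was 1256 bp (wild type) and 164 bp (PCGF5-deficient), and it was 0 in both NPC lists. The H3K27me3 coverage was 900 bp (ES) and 2152 bp (NPC) for wild type, and 1419 and 1121 bp for PCGF5-deficient cells. The wild type ES list had the largest H2AK119ub1 coverage of the 10 genes in ES, and the value in PCGF5-deficient ES was 0.131 times as large. The start of Thpo, the thrombopoietin gene, is 1384 bp away, and all 14 histone promoter peaks of Chrd also lay in the promoter window of Thpo, so they cannot be assigned to either gene alone. The 107 bases in capitals of the Chrd run were covered by H3K27me3 in all 4 lists and by H2AK119ub1 in PCGF5-deficient ES.

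Fst encodes follistatin, best known as an inhibitor of activin and also a binder of BMPs, and lies at chr13:115242470-115249159 on the minus strand with 2 annotated starts. H2AK119ub1 covered 326 bp (wild type) and 280 bp (PCGF5-deficient) in ES and 0 in both NPC lists. For H3K27me3 the ES values were 739 and 437 bp, and the NPC values 0 and 1368 bp. Fst was the 1 gene of the 10 with no histone peak at all in wild type NPC among those that had any in ES. The highest H3K27me3 enrichment at Fst, 7.69, was in PCGF5-deficient NPC. The intronic stretch printed above, 104 bases in capitals, was covered by both marks in both ES genotypes and by H3K27me3 in PCGF5-deficient NPC. The NPC Flag-PCGF5 list had 2 peaks at the Fst promoter, 1 of 1011 bp over the start (enrichment 2.00) and 1 of 230 bp in the intron (2.49). Neither overlapped that stretch, and Flag-PCGF5 was not profiled in PCGF5-deficient cells.

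Grem1 encodes gremlin, an antagonist active in limb and kidney, and lies at chr2:113586321-113598803 on the minus strand. It had no H2AK119ub1 promoter peak in any list. H3K27me3 covered 564 bp (wild type) and 0 (PCGF5-deficient) in ES, and 2359 and 2526 bp in NPC. Like Bmp2, it had H3K27me3 in every list of that mark but PCGF5-deficient ES, a pattern shared by 6.39% of all genes with an H3K27me3 promoter peak. Bambi, at chr18:3507955-3516402 on the plus strand, had no peak of any list at its promoter or in its body, and the nearest peak midpoint of any list was 389820 bp away.

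**Figure D2:**
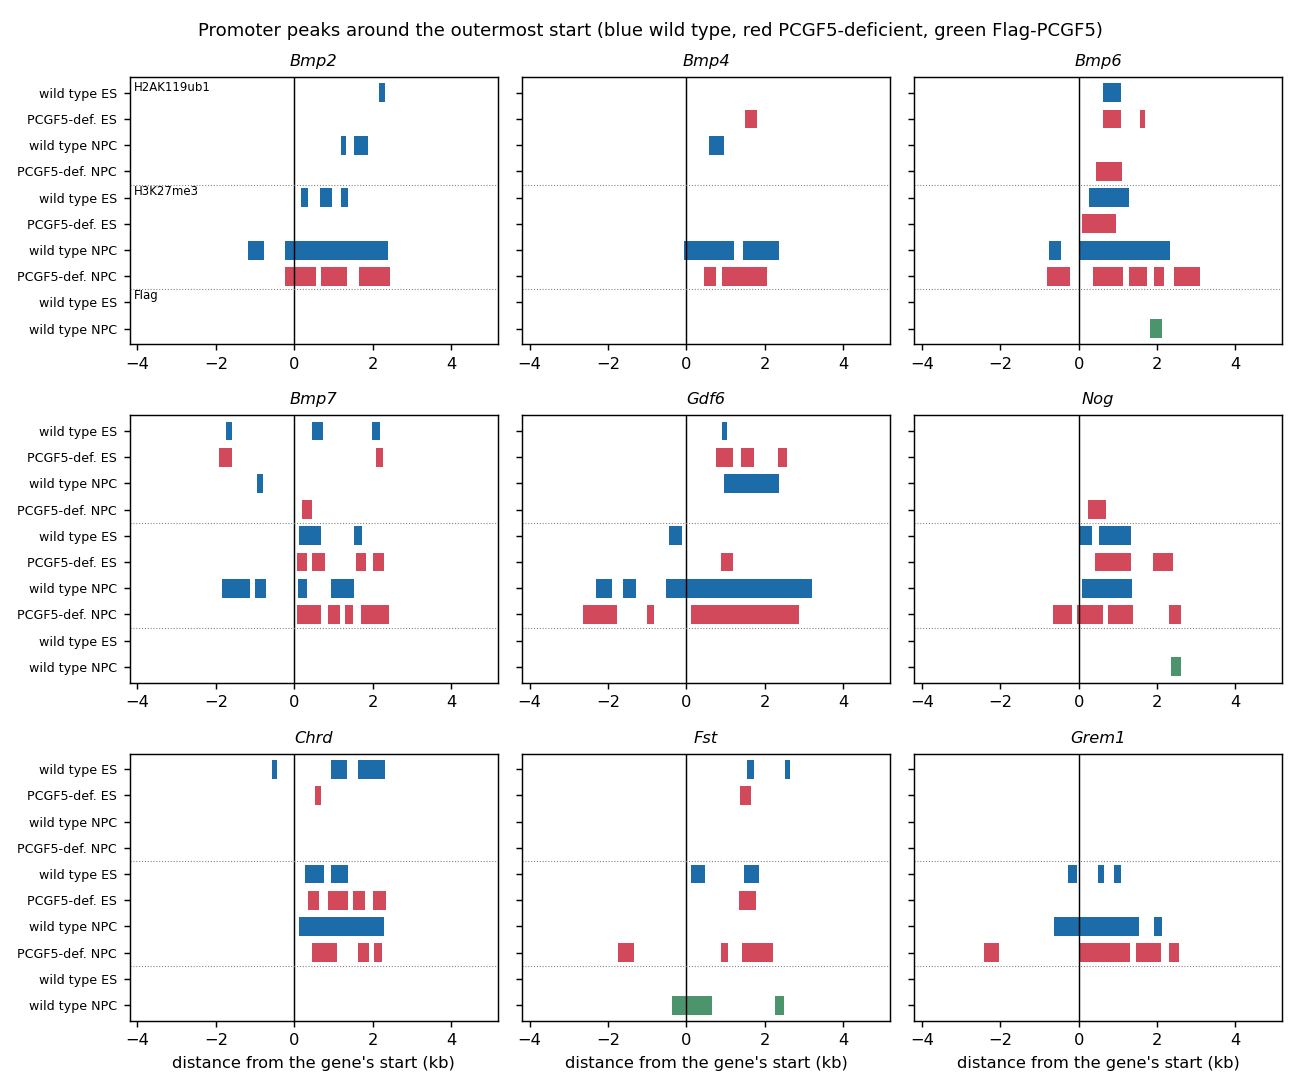
Promoter peaks of the 9 genes with any, drawn as bars by distance from the outermost start in kb (positive values run into the gene), with 1 row per list; dotted lines separate H2AK119ub1, H3K27me3 and Flag-PCGF5. Most bars lie to the right of the start, and the wide H3K27me3 bars of wild type NPC at Bmp2, Chrd and Grem1 stand against several shorter bars in PCGF5-deficient NPC.

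The peaks sat inside the genes more often than over the starts. Of the 110 promoter peaks of the 10 genes, 90 had their midpoint downstream of the nearest start and 57 lay in introns, 16 in coding exons, 16 in untranslated parts of exons, 18 upstream and 3 past the 3′ end of Nog, while 13 covered a start. For H2AK119ub1, 86.2% of 29 peaks lay downstream, against 57.3% to 65.9% of all promoter peaks per list. For H3K27me3, 80.5% of 77 peaks did, against 58.4% to 67.2%. Several peaks belong to the same gene and recur in several lists, so these shares describe 9 genes and not independent peaks.

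H3K27me3 was wider in NPC than in ES at most of the genes in both genotypes. In wild type cells, 7 of the 9 genes with a peak at either stage had at least 1.5 times more covered bp in NPC (67% of all genes with a peak at either stage), and 1, Fst, had less (22.9%). In PCGF5-deficient cells, 7 of 9 had more (64.5%) and 0 less (21.9%). Both counts were thus near those of other marked genes. Gdf6 had the largest ratio among the genes marked at both stages, 14.6 (wild type) and 12.1 (PCGF5-deficient). Summed over the 10 genes, H3K27me3 covered 6086 bp in wild type ES and 19974 bp in wild type NPC, a log2 ratio of 1.71 against 1.43 for all genes, and 5612 and 19204 bp in PCGF5-deficient cells, 1.77 against 1.25. When a midpoint within 1000 bp was required, 4 genes had more and 5 less in wild type NPC. When the bases inside 1000 bp were counted instead, 8 had more and 1 less.

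H2AK119ub1 showed no common direction between the stages in wild type cells. Of 7 genes with a peak at either stage, 3 had at least 1.5 times more covered bp in NPC (Bmp2, Bmp4 and Gdf6; 38% of all genes with a peak at either stage) and 4 had less (Bmp6, Bmp7, Chrd and Fst; 53.1%). The 3 that had more were all ligands. In PCGF5-deficient cells 1 of 7 had more (Nog; 29.5%) and 5 had less (Bmp4, Bmp7, Gdf6, Chrd and Fst; 58.1%). Summed over the 10 genes, H2AK119ub1 covered 2940 bp in wild type ES and 2398 bp in wild type NPC, and 2886 and 1362 bp in PCGF5-deficient cells. The log2 ratios were -0.29 against 0.25 for all genes in wild type cells, and -1.08 against -0.53 in PCGF5-deficient cells.

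**Figure D3:**
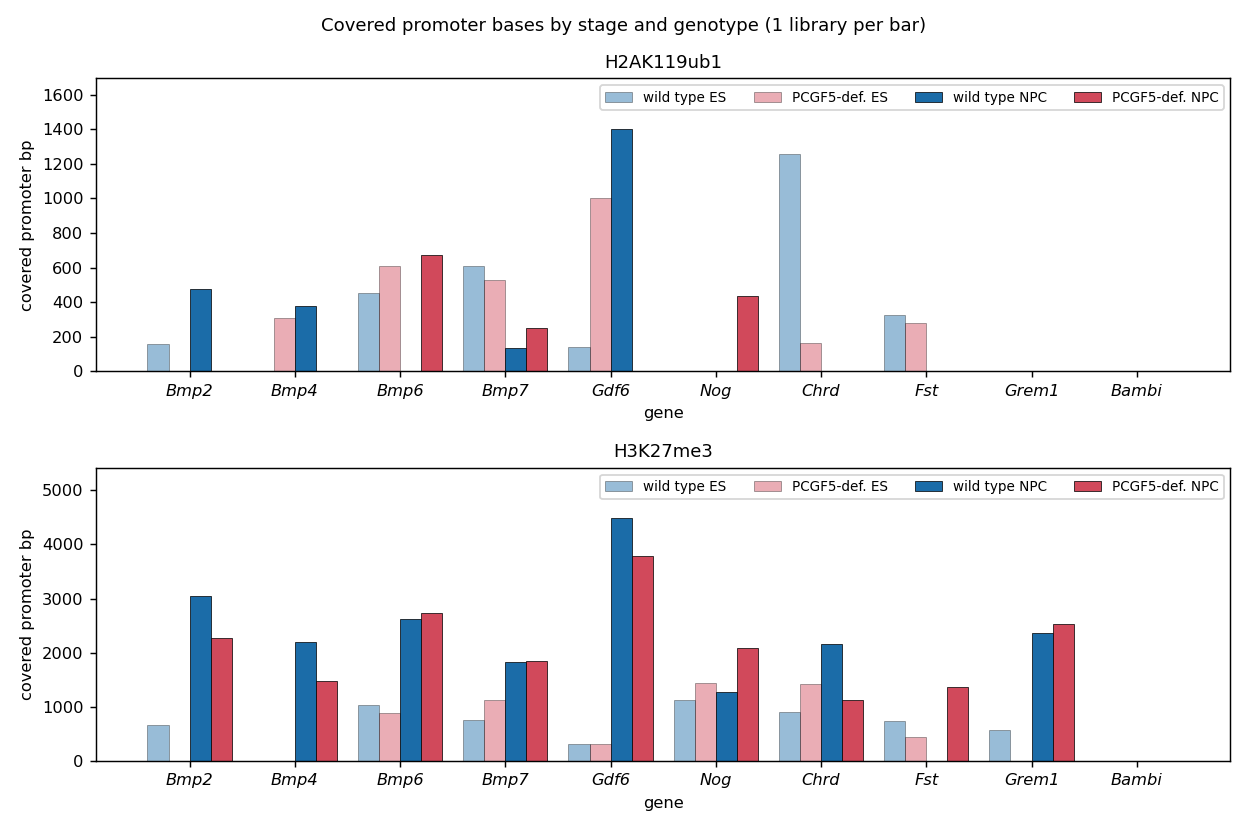
Covered promoter bp of each gene, with pale bars for ES and full bars for NPC, blue for wild type and red for PCGF5-deficient cells (1 library per bar, no error bars). H3K27me3 bars of NPC exceed those of ES at most genes, and at Bmp2, Bmp4 and Gdf6 an H2AK119ub1 bar is present in wild type NPC and absent in PCGF5-deficient NPC.

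Between genotypes, the H2AK119ub1 peaks of NPC at these genes did not overlap. Of 6 genes with a peak in either NPC list, 3 had at least 1.5 times less covered bp in PCGF5-deficient cells (Bmp2, Bmp4 and Gdf6, each with no peak left; 56.1% of all genes with a peak in either list), and 3 had more (Bmp6, Bmp7 and Nog; 31.7%). None of the 5 wild type NPC peaks at these genes was overlapped by a PCGF5-deficient peak, and none of the 3 PCGF5-deficient peaks by a wild type peak, where 31.1% and 50.2% of all promoter peaks were. Bmp7 alone was marked in both lists, and there the peaks lay on opposite sides of the start. At the other genes a single list had a peak, so the missing overlap restates presence or absence. The whole NPC lists held 5754 (wild type) and 3845 (PCGF5-deficient) peaks. Over all genes the covered bp were 1046220 and 553438, a log2 ratio of -0.92, against -0.82 for the 10. In ES, 5 of 11 wild type peaks and 5 of 10 PCGF5-deficient peaks overlapped each other (32.7% and 38.0% of all promoter peaks). There, of 7 genes, 2 had more (Bmp4 and Gdf6; 37.2%) and 2 less (Bmp2 and Chrd; 48%) in PCGF5-deficient cells.

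H3K27me3 at these genes had nearly the same summed width in both full NPC lists, but this depended on the counting. In NPC the 10 genes had 17 H3K27me3 promoter peaks over 19974 bp (wild type) and 31 over 19204 bp (PCGF5-deficient). The whole lists also differed in that direction, with 11371 and 14759 peaks, and with 6633 and 8072 pairs of a gene and a promoter peak. Over all genes the covered bp were 6125547 and 4758286, a log2 ratio of -0.36, against -0.06 for the 10. With equal numbers of peaks, 4 genes had more covered bp in PCGF5-deficient NPC and 5 less. The differences at Bmp2 and Bmp4 were then -2245 and -2202 bp, in place of -778 and -734 bp. Of 9 genes with a peak in either NPC list, 2 had at least 1.5 times more in PCGF5-deficient cells (Nog and Fst; 27.4% of all genes with a peak in either list) and 2 had less (Bmp4 and Chrd; 44.2%). When any base of a peak in the window counted, the Nog difference was 381 bp in place of 807 bp and no longer reached 1.5 times. In ES, 1 of 8 had more (Chrd; 34.2%) and 3 had less (Bmp2, Fst and Grem1; 42.2%). Counting the bases inside 1000 bp of a start, 7 of the 8 genes had less H3K27me3 in PCGF5-deficient ES and 1 had more, whereas over whole peaks it was 4 and 4.

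**Figure D4:**
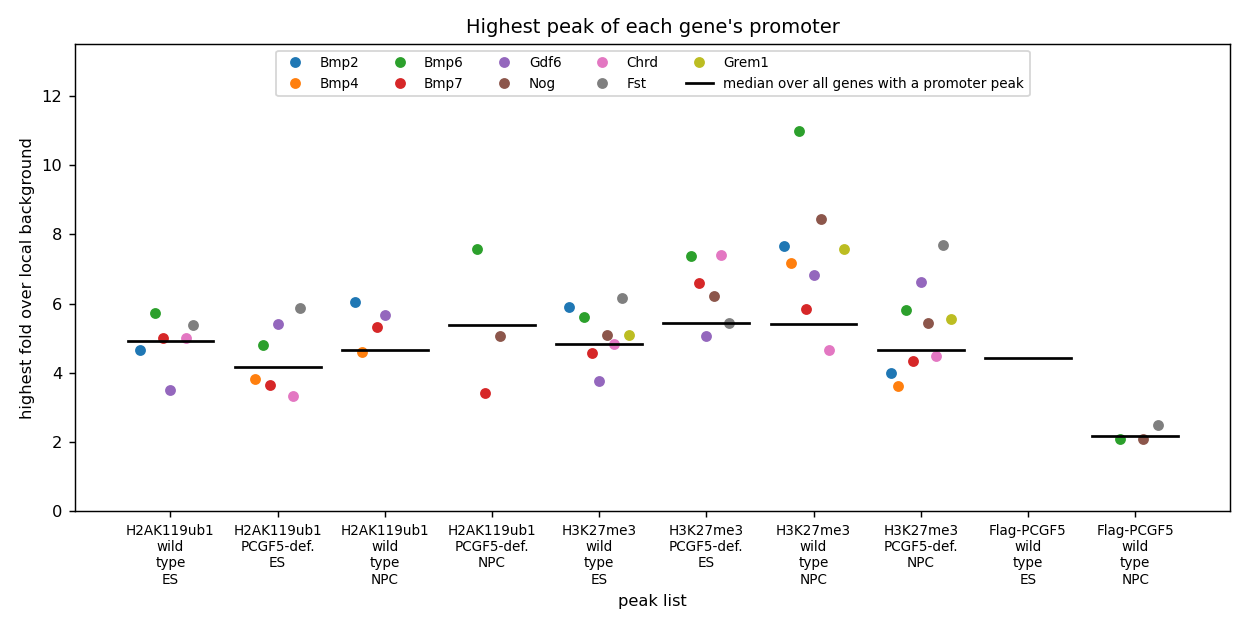
Highest enrichment (fold over local background) among each gene's promoter peaks in each list, with a black line at the median over all genes with a promoter peak in that list. The wild type NPC H3K27me3 points reach 11.0 at Bmp6, and 7 of 8 lie above that list's line.

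In each H3K27me3 list, the highest enrichments of these genes had a higher median than those of all marked genes. The ES medians were 5.09 against 4.83 (wild type) and 6.42 against 5.45 (PCGF5-deficient). In wild type NPC the highest H3K27me3 enrichment of the 8 marked genes was 4.65 (Chrd) to 11.0 (Bmp6), with a median of 7.38, against 5.40 for all genes with a promoter peak in that list. In PCGF5-deficient NPC it was 3.63 (Bmp4) to 7.69 (Fst), with a median of 5.45 against 4.67. All 8 genes with a peak in both lists had a lower value in PCGF5-deficient NPC, as did 71.6% of all such genes. In ES the order was the other way, with 5 of 6 genes higher in PCGF5-deficient cells (66.6% of all such genes were higher). For H2AK119ub1 the medians were 5.02 against 4.93 (wild type ES), 4.31 against 4.16 (PCGF5-deficient ES) and 5.49 against 4.65 (wild type NPC). The H2AK119ub1 peaks of PCGF5-deficient NPC had a median of 5.08 against 5.38 for all marked genes, and the NPC Flag-PCGF5 peaks 2.09 against 2.18. Enrichment depends on the background of each library, and its part in these differences was not tested.

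Where H2AK119ub1 was present, H3K27me3 was nearly always present too. In wild type ES, the 6 genes with H2AK119ub1 also had H3K27me3 (79.8% of all genes with H2AK119ub1), as did 4 of 4 in wild type NPC (94.9%) and 3 of 3 in PCGF5-deficient NPC (92.6%). In PCGF5-deficient ES it was 5 of 6 (73.3%), and Bmp4 was the exception. With so few genes, these counts were near the shares of all genes with H2AK119ub1. The peaks themselves coincided less in ES, where 4 of 11 wild type and 5 of 10 PCGF5-deficient H2AK119ub1 peaks were overlapped by H3K27me3 (54.2% and 38.0% of all promoter peaks). In NPC all 5 wild type and all 3 PCGF5-deficient peaks were (91.3% and 90.6%). The H3K27me3 peaks of ES were mostly found again in NPC, 14 of 16 in wild type (64.8% of all promoter peaks) and 13 of 13 in PCGF5-deficient cells (61.6%).

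Over the gene bodies, H3K27me3 was again widest in NPC. In wild type NPC 26 peaks covered 22981 bp of the bodies of 8 genes, and 15 of these peaks were not promoter peaks, 9 of them at Gdf6. In PCGF5-deficient NPC 36 peaks covered 19706 bp of 9 genes, 12 of them outside the promoters. Both ES lists held fewer, 15 peaks over 5962 bp in wild type and 16 over 7232 bp in PCGF5-deficient cells. At Gdf6 the wild type NPC peaks covered 38.9% of the body and the PCGF5-deficient NPC peaks 24.8%. At Bmp7 the order was reversed, at 2.29% (wild type) and 4.98% (PCGF5-deficient). H2AK119ub1 had 3 to 12 body peaks per list. Body coverage over all genes was not counted, so these sums have no background beside them.

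Flag-PCGF5 promoter peaks were at 3 of the 10 genes in NPC, where 13.7% of all genes had one, and at 0 in ES. In NPC, 3 peaks lay in the bodies of Bmp6 and Fst over 1177 bp. In ES, the list held 3 peaks in introns of Bmp7, 9762, 25918 and 39263 bp from the start, with enrichments of 94.0, 96.9 and 149. These values are far above the ES list's median of 4.46, and the peaks are part of a cluster in which 40 ES Flag-PCGF5 peaks, 6.13% of the list, lay within 1 Mb of the Bmp7 start with a median enrichment of 85.7. The NPC list had 16 peaks in the same interval with a median of 2.24. The part of this cluster in the Bmp7 peaks was not tested, and none of the 3 was overlapped by a peak of another list.

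Other genes of the pathway were described from lists chosen by name. Of 11 other ligands, H3K27me3 was listed in ES at 4 (wild type; 13.4% of all genes) and 5 (PCGF5-deficient; 12.9%). In NPC it was listed at 5 of either genotype (15.7% and 15.4%). Gdf7, a ligand of the roof plate of the spinal cord, led them with 5173 bp in wild type and 4162 bp in PCGF5-deficient NPC, followed over the 8 histone lists by Bmp8b (6064 bp) and Gdf10 (4024 bp). Among 12 other antagonists, ES counts were 5 (wild type) and 3 (PCGF5-deficient), and NPC counts 5 and 6, against the same shares of all genes. They were led by Nbl1, Chrdl2 and Fstl3, with 9722, 6684 and 4082 bp over the 8 histone lists.

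Of 13 receptors and transducers, wild type lists held H3K27me3 at 4 in ES and 4 in NPC (13.4% and 15.7% of all genes), and PCGF5-deficient lists at 3 and 3 (12.9% and 15.4%). These were the inhibitory Smad6 (5990 bp over the 8 histone lists), the endothelial receptor Acvrl1 (4682 bp), Smad9 (2452 bp) and Bmpr1b. The main receptors Bmpr1a and Bmpr2 and the transducers Smad1, Smad4 and Smad5 had no histone promoter peak. Flag-PCGF5 in NPC lay at 4 of the 13 (13.7% of all genes), Acvr2b, Smad1, Smad4 and Smad7, none of which had a histone peak.

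Of 6 target genes of the pathway, H3K27me3 was listed in ES at 2 (wild type) and 4 (PCGF5-deficient), where 13.4% and 12.9% of all genes had it, and 4 and 6 were the counts for NPC, against 15.7% and 15.4%. With 6 genes and 1 library per group, this difference was not tested. Msx1, a homeobox target of BMP signalling, had 18326 bp over the 8 histone lists, and its H2AK119ub1 coverage was 2782 bp in wild type and 322 bp in PCGF5-deficient NPC. Msx2 (9502 bp) had 1840 and 237 bp in the same lists. Of 4 targets with H2AK119ub1 in either NPC list, 3 had at least 1.5 times less in PCGF5-deficient cells, Msx1 and Msx2 among them. The other, Id3, had more, with 0 bp in wild type and 263 bp in PCGF5-deficient NPC. Of all genes with a peak in either list, 56.1% had less and 31.7% more. Id3, a direct target, had 2712 bp of H3K27me3 in PCGF5-deficient NPC and none in wild type NPC, with a Flag-PCGF5 peak of 341 bp in wild type NPC. Id1 showed the same combination, with 0 and 720 bp of H3K27me3 and 1454 bp of Flag-PCGF5. At Fst the arrangement was alike, with H3K27me3 at 0 in wild type and 1368 bp in PCGF5-deficient NPC and 1241 bp of Flag-PCGF5. The Flag-PCGF5 enrichments were 2.05 (Id3), 1.96 (Id1) and 2.49 (Fst), against a median of 2.18 over all genes marked in the NPC list. Bmp6 and Nog also had a Flag-PCGF5 peak in NPC, but with H3K27me3 in NPC of both genotypes. How many of all genes share the combination of Id3, Id1 and Fst was not counted, and its cause was not tested.

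For each gene marked in at least 4 histone lists, the genes most alike over the 10 lists were found by the Euclidean distance of log2(covered bp + 100). Fst was nearest to Irf2 (distance 1.03) and Chst1 (1.35), which had 1344 and 1457 bp of H3K27me3 in PCGF5-deficient NPC, none in wild type NPC, and a Flag-PCGF5 peak in NPC. Gdf6 was nearest to the homeobox genes Pdx1 (1.56) and Rax (1.82), which also had H2AK119ub1 in every list but PCGF5-deficient NPC. Bmp7 was nearest to Irx1 (1.18) and Twist2 (1.26), and Chrd to Ptprt (0.948) and Crhr2 (1.08). Bmp6 was nearest to Sez6l (1.17) and Arid3c (1.58), Bmp4 to Nfil3 (1.25) and Aldh1a3 (1.62), Nog to Sh2d3c (1.47) and Abcg4 (1.89), and Bmp2 to Sh2d5 (1.56) and Prss12 (1.57). The median distance to all marked genes was 6.43 to 8.82, and nearness is in part a result of choosing the closest of all marked genes.

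The start regions were rich in CpG. In the 500 bp on either side of the outermost start, the median G+C content of the 10 genes was 68.0% against 54.8% for all genes, and the median ratio of observed to expected CpG was 0.824 against 0.555. Genes with an H3K27me3 promoter peak in all 4 lists had medians of 61.9% and 0.694, and those with none 53.0% and 0.477. Bmp2 had a CpG ratio of 1.08, reached by 0.288% of all genes, and Nog 0.940, reached by 5.18%. Bmp4 was the exception with 0.443, below the median of all genes. Bambi, with no peak in any list, had 0.837, so its start region is as rich in CpG as those of the marked genes.

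**Figure D5:**
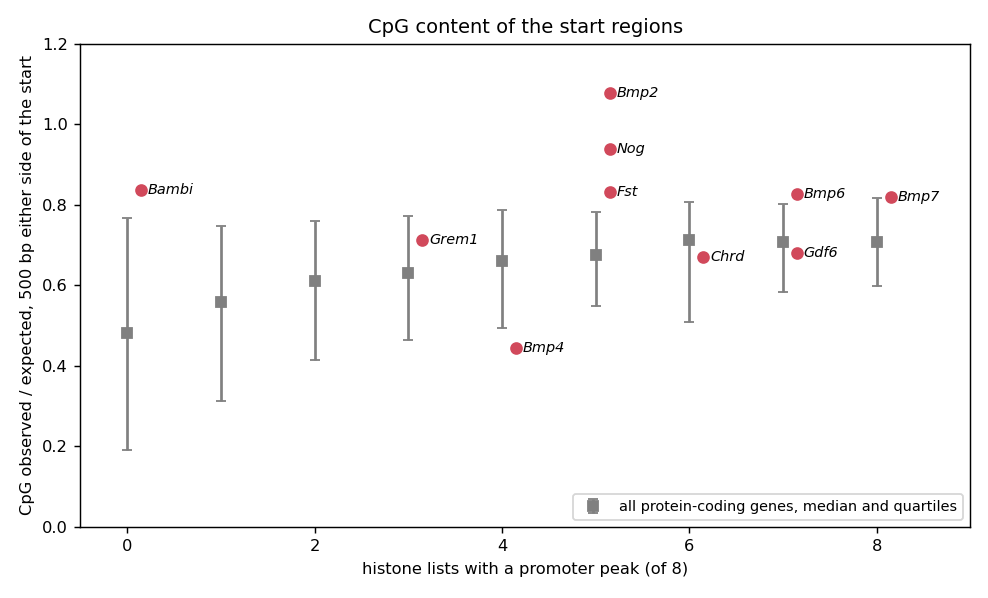
Ratio of observed to expected CpG within 500 bp of the outermost start, against the number of histone lists (of 8) with a promoter peak; red points are the 10 genes and grey squares with bars give the median and quartiles of all protein-coding genes with that number. Bambi lies at 0 lists with a ratio of 0.837, and Bmp4 at 4 lists with 0.443.

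The same windows were searched on both strands for GGCGCC, a GC-rich motif of BMP-responsive SMADs, and for CAGAC, the SMAD box. GGCGCC occurred at 6 of the 10 genes (Bmp2, Bmp7, Nog, Chrd, Grem1 and Bambi), against 33.3% of all genes and 56.0% of genes with H3K27me3 in all 4 lists. CAGAC occurred at 10 of 10, against 88.7% of all genes. In the runs printed above, GGCGCC occurred 1 time each in the Bmp2 and Fst introns, and CAGAC or its complement 2 times downstream of Nog and 1 time in Chrd. The letters alone do not show that a factor binds there.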

How the data were processed

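Peak lists of 10 mouse ChIP-seq libraries were used, 1 library per group as labelled, and the 6 input libraries were not used here. According to the study's methods and the submitters' processing notes, the authors digested chromatin with micrococcal nuclease for histone marks and sonicated it for Flag, trimmed reads with Trimmomatic, aligned them to mm9 with Bowtie2 and ran MACS2 2.1.0 on 1 library at a time. A Drosophila spike-in does not enter the lists, so the number and width of peaks vary with depth, which is unknown, and background. The fold enrichment, −log10 p-value and −log10 q-value of each peak are as deposited by the authors. The deposited score is 10 times the −log10 p-value (histone marks) or −log10 q-value (Flag), rounded down, and ranked the peaks. The peak names of the NPC Flag list carry the word broad and those of the ES Flag list do not, so the widths of these 2 lists are not comparable.

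Starts of 22232 protein-coding gene names were taken from GENCODE M1 on NCBIM37, the assembly behind mm9, and 0 peaks lay beyond a chromosome end. The members, the pathway lists, the window of 2500 bp and the difference of 1.5 times were chosen with earlier results of these data known. Named were all 10 members, up to 3 genes per pathway list with most covered bp over the histone lists, and the 2 nearest genes by likeness, with starts over 5000 bp away. Bmpr1b, Id1 and the receptors and transducers without histone peaks were named after their values were seen. Counts were made with Python 3.11.15 and pandas 2.3.3. The assignment of peaks was tested on simulated data, and 20 comparisons with bedtools 2.31.1 gave 0 differences. Alternatives were a midpoint within 1000 bp, any base of a peak, the higher-scoring 50%, equal numbers of peaks per target, merging within 1000 bp, a q-value of at most 0.05 and the outermost start alone. Lists cut to the shorter genotype and bases inside 2500 or 1000 bp were added after the data were seen.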

Additional observations from a re-analysis of the deposited data

Results flagged for a closer look

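At 4 genes the difference between genotypes ran in opposite directions in ES and NPC by at least 1.5 times in each, and this difference was not tested. For Bmp4, H2AK119ub1 covered 0 bp in wild type and 307 bp in PCGF5-deficient ES, but 380 and 0 bp in NPC, a difference of -380 bp. For Gdf6, H2AK119ub1 covered 139 and 1000 bp in ES and 1403 and 0 bp in NPC, a difference of -1403 bp. These patterns depended on the processing. The Bmp4 difference in ES, 307 bp, was 0 with midpoints or bases within 1000 bp, with the higher-scoring 50% and with equal numbers of peaks, and the Gdf6 difference in NPC was 0 with midpoints within 1000 bp. For Chrd, H3K27me3 covered 900 and 1419 bp in ES and 2152 and 1121 bp in NPC, a difference of -1031 bp, but in ES the bases inside 1000 bp of the start ran the other way, as did both stages with midpoints within 1000 bp. For Fst, H3K27me3 covered 739 and 437 bp in ES and 0 and 1368 bp in NPC, a difference of 1368 bp, and with the higher-scoring 50% the ES difference was 67 bp in place of -302 bp. Such opposite differences were found for 39.1% of 903 genes with H2AK119ub1 at both stages and 21.0% of 2875 genes with H3K27me3 at both, so 2 of 5 and 2 of 8 among the genes described here are near the background.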

How the results depend on the processing

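No paired analysis was possible because each group holds 1 library and the labels give no replicate numbers. With 1 library a group and no counts of reads, neither replicate spread nor depth can be set against any difference, and the cause of each turn given here was not tested. Differences are in covered bp, and those between genotypes are PCGF5-deficient minus wild type. Counts of genes with a peak, or with any more or less covered bp, stayed within 1.5 times under any base of a peak, a q-value of at most 0.05, the outermost start alone, lists cut to the shorter genotype and bases inside 2500 bp.

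With midpoints within 1000 bp, H2AK119ub1 was at 3 genes in PCGF5-deficient ES and 2 in wild type NPC, and Flag at 1 in NPC. H2AK119ub1 was then less at 1 gene in PCGF5-deficient ES and 1 in NPC, and H3K27me3 in ES was more at 1 and less at 7. From ES to NPC, H2AK119ub1 was more at 1 (wild type) and less at 2 (PCGF5-deficient), and H3K27me3 more at 4 and less at 5 (wild type) and less at 0 (PCGF5-deficient). Between genotypes the direction turned in ES for Chrd H2AK119ub1 (18) and for H3K27me3 at Gdf6 (-307), Nog (-209) and Chrd (-209), and in NPC for H3K27me3 at Bmp2 (380), Bmp6 (-797), Gdf6 (180), Nog (-154), Chrd (646) and Grem1 (-896). Between stages it turned for H2AK119ub1 at Gdf6 (wild type, -139) and Bmp7 (PCGF5-deficient, 253), and for H3K27me3 at Bmp2 (-63), Bmp7 (-53), Gdf6 (-307) and Chrd (-474) in wild type cells and Chrd (381) in PCGF5-deficient cells.

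With bases inside 1000 bp alone, H2AK119ub1 was at 3 genes in PCGF5-deficient ES and Flag at 1 in NPC. Between genotypes, H2AK119ub1 in ES was less at 2, and H3K27me3 was more at 1 and less at 7 in ES and more at 3 in NPC. From ES to NPC, H2AK119ub1 was more at 1 (wild type) and less at 2 (PCGF5-deficient), and H3K27me3 less at 0 (PCGF5-deficient). H3K27me3 turned between genotypes at Gdf6 (-186), Nog (-207) and Chrd (-128) in ES and at Bmp6 (-205) and Grem1 (-664) in NPC, and between stages at Chrd (PCGF5-deficient, 155). H2AK119ub1 turned between stages at Gdf6 (wild type, -54) and Bmp7 (PCGF5-deficient, 253).

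With the higher-scoring 50%, H2AK119ub1 was at 3 genes in PCGF5-deficient ES, Flag at 1 in NPC, H3K27me3 more at 3 in PCGF5-deficient NPC and H2AK119ub1 less at 2 from ES to NPC of PCGF5-deficient cells. Between genotypes it turned Bmp7 H2AK119ub1 in NPC (-138) and H3K27me3 at Nog (-209) and Fst (67) in ES and Bmp6 (-245) and Grem1 (-10) in NPC. With equal numbers of peaks these counts were 3, 0 for Flag and 2 for the stages, Bmp6 H3K27me3 in NPC was -557, and Bmp7 H2AK119ub1 from ES to NPC of PCGF5-deficient cells was 253. With peaks merged, PCGF5-deficient cells had more H2AK119ub1 at 1 and less H3K27me3 at 2 from ES to NPC. Merging turned H3K27me3 between genotypes at Nog in ES (-1321) and at Bmp7 (-3387) and Gdf6 (1145) in NPC, and between stages of PCGF5-deficient cells H2AK119ub1 at Bmp6 (-413) and H3K27me3 at Bmp7 (-2219). The outermost start turned Fst H2AK119ub1 in ES (94) and Bmp6 H3K27me3 in NPC (-557), and cut lists turned Bmp7 H2AK119ub1 in ES (120).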
